A study of Homo sapiens with 6 samples.

Results

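The genes described here encode RNA polymerase II and the general transcription factors that load it onto promoters, and what was measured at them is binding of AcNEIL1, the acetylated form of the DNA glycosylase NEIL1, in HCT116 cells, an established human colorectal adenocarcinoma line. Members were taken by symbol: autosomal protein-coding genes named POLR2 plus a letter, GTF2 plus letters or numbers, TBP, or TAF plus a number. There were 45 of them among 18991 autosomal protein-coding genes in RefSeq on hg38, namely 13 RNA polymerase II genes, 14 genes for TBP and its TAFs, 6 for TFIIH, 4 of the TFII-I family, 3 for TFIIA, 2 each for TFIIE and TFIIF, and 1 for TFIIB. Chromatin of exponentially growing, formaldehyde-crosslinked cells was immunoprecipitated with a custom rabbit antibody to AcNEIL1 in 3 replicates, and the DNA before immunoprecipitation was sequenced as 3 inputs. All libraries came from the same unmodified, untreated line, so the study has 1 condition, and the contrast in each peak is ChIP against the input with the same number. The deposited peak lists hold no expression values, so the labelled cell line could not be checked against marker genes.

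RNA polymerase II copies protein-coding genes into RNA. To begin at a promoter it needs TFIID, built of the TATA-binding protein TBP and the TBP-associated factors, together with TFIIA, TFIIB, TFIIE, TFIIF and TFIIH, and TFIIH also opens DNA around lesions in nucleotide excision repair. NEIL1 removes oxidised bases and so starts base excision repair, a separate pathway. The TFII-I family carries GTF2 symbols for historical reasons, since its products are sequence-specific factors and not parts of the core machinery.

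Depth was similar across libraries, at 31921768, 28814429 and 35222701 tags for ChIP replicates 1 to 3 and 32877739, 37772127 and 33606858 tags for their inputs. The authors' lists had 39898, 60233 and 49731 peaks. Of these, 39655, 59750 and 49482 were autosomal, with a median fold enrichment over local background of 3.42, 3.39 and 3.61. The longest list came from the replicate with the fewest ChIP tags. Each gene was divided into its ends (within 1 kb of either end of the annotated gene), its body (the rest of the gene) and its flanks (from 1 to 10 kb outside it), and a gene was counted in a zone where a peak touched that zone. A zone without a peak is one where no position passed the authors' cutoff at this depth. Folds are the authors' value for each peak, and for a gene the strongest peak in a zone is given. Where such folds are averaged, the peaks of the replicates could lie apart, so the SD does not measure agreement at 1 site.

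The promoters that matter most for what follows are shown first, from RefSeq on GRCh38.p14, each as 250 bases before and 50 after an annotated start on the plus strand. GTF2IRD1, a TFII-I related factor, was the only one of the 34 members with a promoter entry whose promoter lay under a peak, and it has an outer entry at chr7:74453656-74453955 and an inner entry at chr7:74454129-74454428. POLR2A, the largest catalytic subunit, and POLR2F, a subunit shared by polymerases I, II and III, are shown as promoters that lay outside every peak, at chr17:7484116-7484415 and chr22:37953449-37953748. Capitals mark GGGCGG (the core of the Sp-factor GC box) and CCAAT, each searched on both strands, so that CCGCCC and ATTGG were marked as well. TATAAA and its reverse TTTATA were also searched, and neither occurred in these sequences.
GTF2IRD1 outer promoter: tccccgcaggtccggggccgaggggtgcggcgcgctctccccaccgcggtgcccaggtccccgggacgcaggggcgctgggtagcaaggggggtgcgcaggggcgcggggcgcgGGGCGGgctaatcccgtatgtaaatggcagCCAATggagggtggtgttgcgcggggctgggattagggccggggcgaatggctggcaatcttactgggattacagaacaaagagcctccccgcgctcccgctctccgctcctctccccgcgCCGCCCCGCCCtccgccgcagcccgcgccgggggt
GTF2IRD1 inner promoter: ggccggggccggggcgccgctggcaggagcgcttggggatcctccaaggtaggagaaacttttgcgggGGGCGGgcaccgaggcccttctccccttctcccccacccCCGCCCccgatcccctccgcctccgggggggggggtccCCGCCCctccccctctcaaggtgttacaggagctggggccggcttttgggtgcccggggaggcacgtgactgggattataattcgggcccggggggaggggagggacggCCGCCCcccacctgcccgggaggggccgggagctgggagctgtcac
POLR2A promoter: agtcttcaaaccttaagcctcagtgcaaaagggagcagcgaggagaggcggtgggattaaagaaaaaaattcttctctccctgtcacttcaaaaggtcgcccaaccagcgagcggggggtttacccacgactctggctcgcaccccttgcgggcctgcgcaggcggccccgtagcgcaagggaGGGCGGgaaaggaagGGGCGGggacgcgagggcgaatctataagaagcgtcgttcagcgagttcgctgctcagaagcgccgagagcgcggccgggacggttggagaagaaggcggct
POLR2F promoter: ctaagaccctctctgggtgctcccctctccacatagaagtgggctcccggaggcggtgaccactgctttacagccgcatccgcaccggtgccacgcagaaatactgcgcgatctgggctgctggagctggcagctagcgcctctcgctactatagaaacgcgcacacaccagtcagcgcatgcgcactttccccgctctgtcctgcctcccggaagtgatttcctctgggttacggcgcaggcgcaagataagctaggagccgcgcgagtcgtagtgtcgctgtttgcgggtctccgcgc
The outer GTF2IRD1 promoter was 74.0% G and C with 35 CpG dinucleotides, and held 3 matches to GGGCGG and 1 to CCAAT. In replicate 2 a peak covered 254 of its 300 bases, and in replicates 1 and 3 none was covered. The inner one was 74.3% G and C with 22 CpG and 4 GGGCGG matches, and 300 of its bases lay under a peak in replicate 1, 138 in replicate 2 and 0 in replicate 3. The peaks on the GTF2IRD1 promoters were weak, with folds at percentile 10.5 of the list in replicate 1 and 5.05 and 8.14 in replicate 2. The POLR2A promoter was 61.3% G and C with 28 CpG and 2 GGGCGG matches. Its nearest peak lay 1090, 906 and 2560 bp away in replicates 1, 2 and 3. The POLR2F promoter, at 62.3% G and C with 27 CpG, held none of these motifs and stood 26714, 23787 and 25171 bp from the nearest peak.

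Promoter entries were found for 34 of the 45 members and gave 43 promoters, and for 15101 of all genes with 21156 promoters. A promoter was under a peak in at least 2 replicates for 1 of the 34 members (2.94%), against 5.11% of all genes. In any replicate it was again 1 member, against 10.1% of all genes. As a class the member promoters were rich in CpG, with a median of 27 and an observed-to-expected CpG ratio of 0.930, against 21 and 0.743 over all promoters, while their median G and C content was 61.3% against 62.7%. Over all genes, the 870 promoters under a peak in at least 2 replicates had a median CpG ratio of 0.397, and the 19335 under none had 0.759. GGGCGG was present in 65.1% of member promoters and 56.6% of all promoters, CCAAT in 20.9% and 34.4%, and TATAAA in 4.65% and 9.51%. These matches describe the sequence alone. Entries were not matched for POLR2G, POLR2I, POLR2J, POLR2K, GTF2E2, GTF2I, GTF2IRD2, GTF2IRD2B, TAF2, TAF8 and TAF15.

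Fewer of these genes than of all genes had AcNEIL1 peaks at their ends or in their bodies, and more of them had a peak in the flanks than in either. In at least 2 replicates, 4 of the 45 members (8.89%) had a peak at a gene end, against 15.8% of all autosomal protein-coding genes. A body peak was found in 6 members (13.3%), against 26.7% of all genes, and a flank peak in 18 members (40.0%), against 33.3%. Any zone held a peak for 21 members (46.7%), a share close to the 46.1% of all genes. No zone held a peak in any replicate for 20 members (44.4%), against 41.6% of all genes. The members had a higher median gene length, 30.3 kb against 24.8 kb, but a lower upper quartile, 52.3 kb against 65.8 kb. Their bodies came to 1.76 Mb over 45 genes, against 1203 Mb over 18991 genes. These shares were not tested, because the samples form 1 condition and genes are not replicates of it.

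Gene ends and bodies had lower shares among the members than among all genes in each replicate. A gene-end peak was found in 6, 4 and 2 members in replicates 1, 2 and 3 (13.3%, 8.89% and 4.44%), against 14.5%, 20.8% and 16.2% of all genes. A body peak was found in 7, 7 and 3 members (15.6%, 15.6% and 6.67%), against 25.2%, 30.8% and 26.9%. Flank peaks were found in 19, 17 and 19 members (42.2%, 37.8% and 42.2%), against 30.3%, 37.9% and 33.9%, so the member share was higher in replicates 1 and 3 and about equal in replicate 2. Member counts at ends and bodies were lower without replicate 1 or 2 than without replicate 3. Without replicate 1, 1 member had an end peak and 3 had a body peak in both others. Without replicate 2 the counts were 2 and 3, and without replicate 3 they were 3 and 6. Requiring both of 2 replicates is stricter than 2 of 3, for members and all genes alike. Over all genes the end count fell from 3003 to 2460, 1953 and 2150 without replicates 1, 2 and 3. The body count over all genes fell from 5073 to 4427, 3975 and 4125. Asking for all 3 replicates left 1 member with an end peak, against 9.37% of all genes. It left 3 with a body peak, against 19.6%, 13 with a flank peak (28.9%), against 22.9%, and 16 with a peak in any zone (35.6%), against 35.3%. Accepting any replicate gave 7 members with an end peak (15.6%), against 26.3%, and 8 with a body peak (17.8%), against 36.6%. It gave 24 with a flank peak (53.3%), against 45.8%, and 25 with a peak in any zone (55.6%), against 58.4%.

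**Figure D1:**
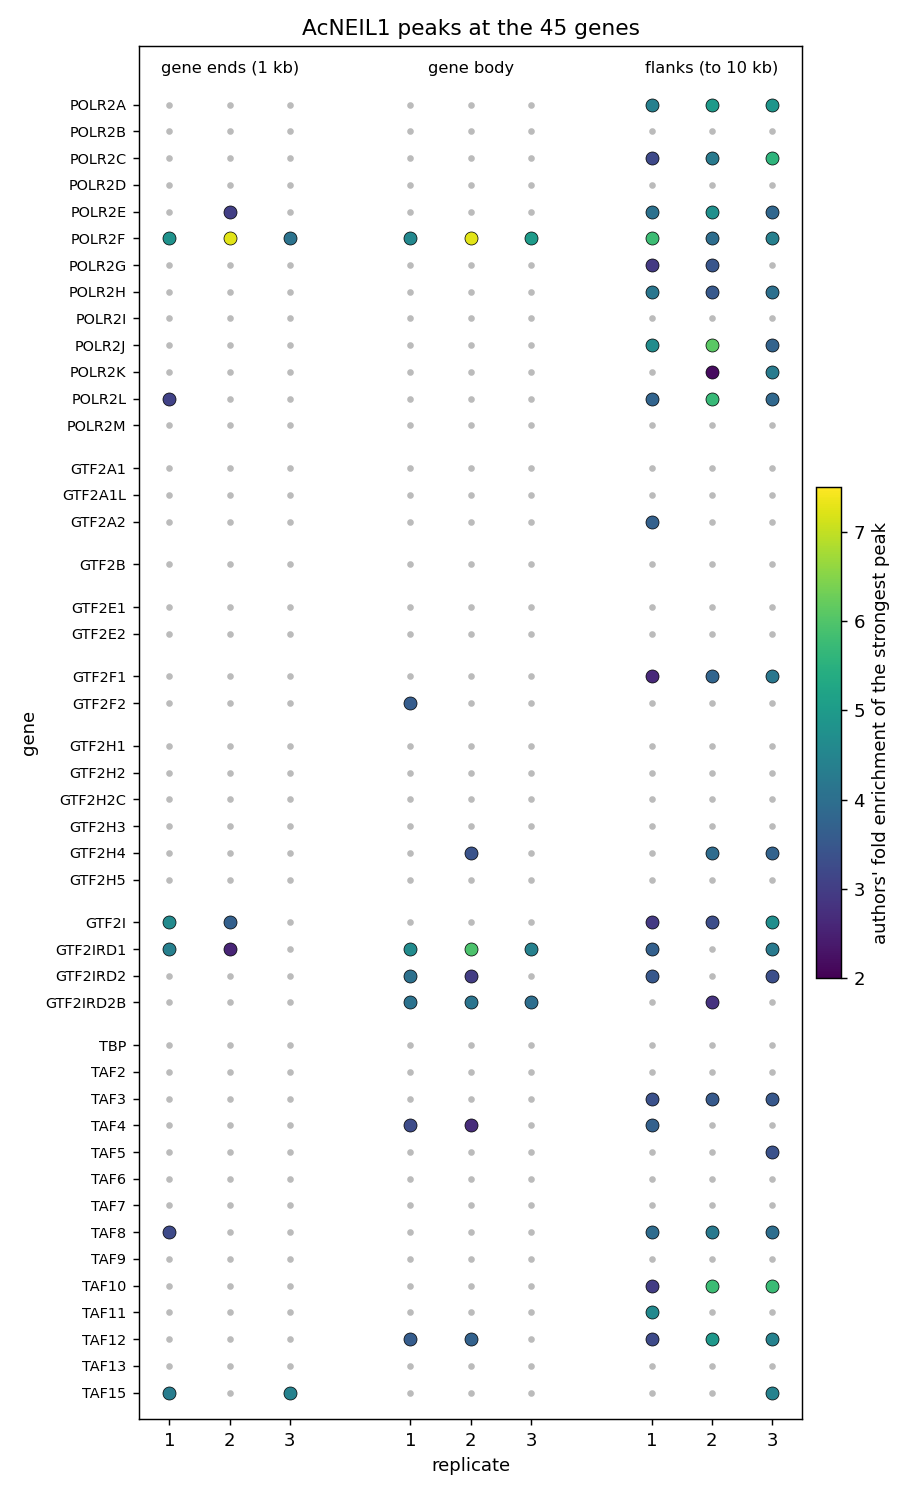
Peaks at each of the 45 genes, by zone and replicate. Rows are genes grouped by complex, columns are replicates 1 to 3 within each zone, a large dot is a zone with at least 1 peak, its colour gives the authors' fold enrichment of the strongest peak, and a small grey dot is a zone with none. Dots at gene ends appear for 7 genes and only POLR2F has all 3, while 13 genes have all 3 in the flanks.

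Counted per length of sequence, the gene ends of the members held 26.0 ± 17.0 peak summits per Mb (SD, n = 3), against 54.9 ± 9.78 at the ends of all genes. By replicate the members had 44.6, 22.3 and 11.2 per Mb, against 45.4, 64.9 and 54.4, so replicate 1 was about equal to all genes and replicates 2 and 3 were lower. Without replicate 1 the members averaged 16.7 per Mb. The flanks held 51.4 ± 9.35 summits per Mb, against 51.6 ± 9.57, which differed by less than the spread between replicates. Member bodies held 27.8 ± 1.13 summits per Mb, against 23.3 ± 4.95. That density rested on POLR2F and GTF2IRD1. POLR2F alone held 24 of 47, 27 of 51 and 32 of 49 body summits of all members in replicates 1, 2 and 3. Without both genes, which were picked out after their values were seen, the other 43 members had 6.10 ± 2.00 summits per Mb of body and 9.73 ± 6.74 per Mb of gene end. No high genes were taken out of the set of all genes, so these values cannot be compared with its densities.

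**Figure D2:**
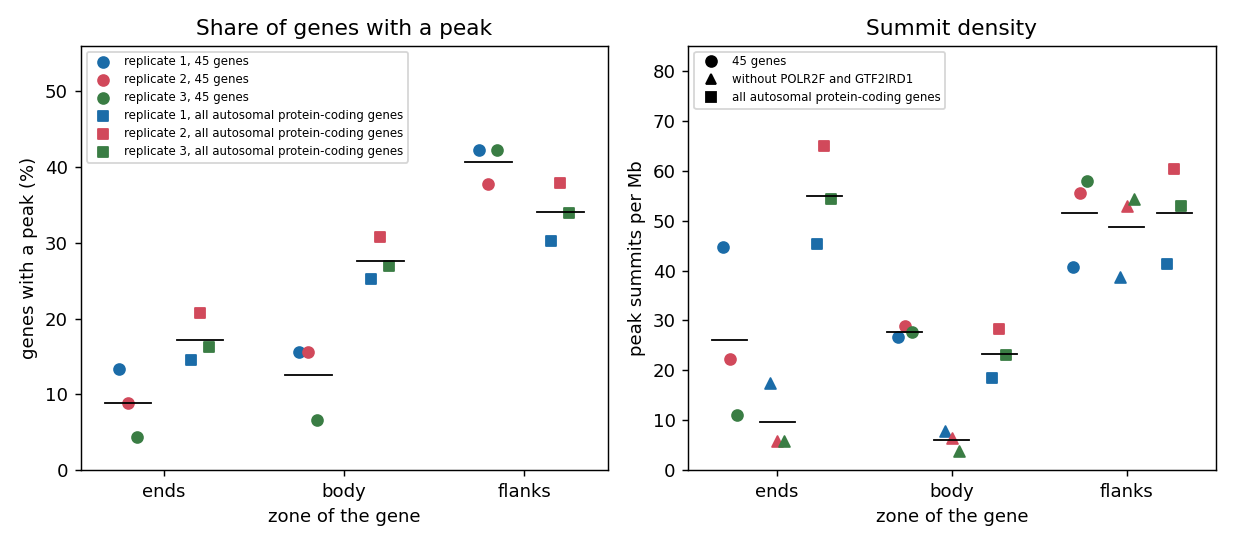
Share of genes with a peak (left, in %) and peak summits per Mb (right), by zone of the gene. Circles are the 45 genes, triangles the same without POLR2F and GTF2IRD1 and squares all autosomal protein-coding genes, 1 point per replicate, with a line at the mean of 3. In gene bodies the circles stand near the squares in density, and the triangles, at 6.10 per Mb on average, stand under the circles. No high genes were taken out of the squares, so triangles and squares are not a like comparison.

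POLR2F was the member with the most peaks in its annotated span and flanks. Its annotated span, chr22:37953663-38041915 on the plus strand, is 88.3 kb long. The extended window held 29, 32 and 36 peaks in replicates 1, 2 and 3, which was 32.2%, 31.1% and 36% of the peaks near any member. Of these, 25, 27 and 33 touched the gene body (28.3 ± 4.16, SD, n = 3), and peaks covered 17.1%, 30.1% and 21.2% of the gene (22.8 ± 6.66%). The 3 replicates thus had similar numbers of peaks, and replicate 2 covered the most sequence. Ranked by body summits, POLR2F stood at place 109, 201 and 100 among all 18991 genes. Among 5028 genes within a factor of 2 of its length the median number of body summits was 0, and 53, 106 and 45 of them had more.

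The start of POLR2F had no peak in any replicate. Walking in from the start, the nearest peak edge came after 26.8, 23.9 and 25.3 kb, within the bounds of SOX10, a neural crest transcription factor gene that lies inside the POLR2F span at chr22:37972312-37984555. SOX10 was touched by 2, 6 and 3 peaks. From there to the far end, overlapping peaks of the 3 lists merged into 40 regions when the flanks were counted in, of which 12 were shared by the 3 replicates, 12 by 2 of them and 16 came from 1. Peaks in SOX10 cannot be given to POLR2F by position alone. Which POLR2F transcripts reach past SOX10 was not examined, so body and end here refer to the annotated span only.

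A region shared by the 3 replicates stood at the far end of the gene, at chr22:38039291-38043595 and reached from the body across the annotated end into the flank. The strongest peak touching that end window had a fold of 4.78, 7.26 and 4.10 in replicates 1, 2 and 3, a mean of 5.38 ± 1.66. Replicate 2 stood highest, and within their own lists these folds stood at percentiles 95.0, 99.8 and 75.8. Their summits lay 0.147 kb outside the annotated end in replicate 1, and 2.28 and 0.46 kb inside it in replicates 2 and 3. Pileup at the summits was 27, 45 and 20.04 tags, and −log10 q was 8.48, 22.4 and 5.33. When a peak was placed by its summit alone, the end fold averaged 3.76, because the strongest peak of replicate 2 then belonged to the body.

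A further stretch inside the body, chr22:37995025-37999559, had folds of 4.38, 6.59 and 4.67 (5.21 ± 1.20), again highest in replicate 2. Another, chr22:38035704-38039235, averaged 4.46 ± 0.61. A peak at chr22:38032163-38032649 touched POLR2F-AS1, an antisense lncRNA gene, in all 3 replicates, with a mean fold of 3.82 ± 0.30. Beyond the gene, the flank region at chr22:38045978-38046882 had folds of 5.76, 3.85 and 4.21 (4.61 ± 1.02), above the region at the far end of the gene in replicates 1 and 3 and below it in replicate 2. Another flank region, chr22:38049854-38051673, averaged 4.09 ± 1.29. Across the window the folds ran from 2.75 to 5.76 in replicate 1, from 2.11 to 7.26 in replicate 2 and from 2.87 to 5.00 in replicate 3. Their medians were 3.66, 3.54 and 3.51, close to the median fold of all autosomal peaks in each list. POLR2F thus stood out by the number of its peaks more than by their height. The local background implied by pileup and fold had medians of 4.85, 6.10 and 4.42 tags at these peaks. Over all autosomal peaks of each list it was 4.94, 5.34 and 4.48 tags. It was thus a little higher here in replicate 2, and its part in the peak count was not tested.

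**Figure D3:**
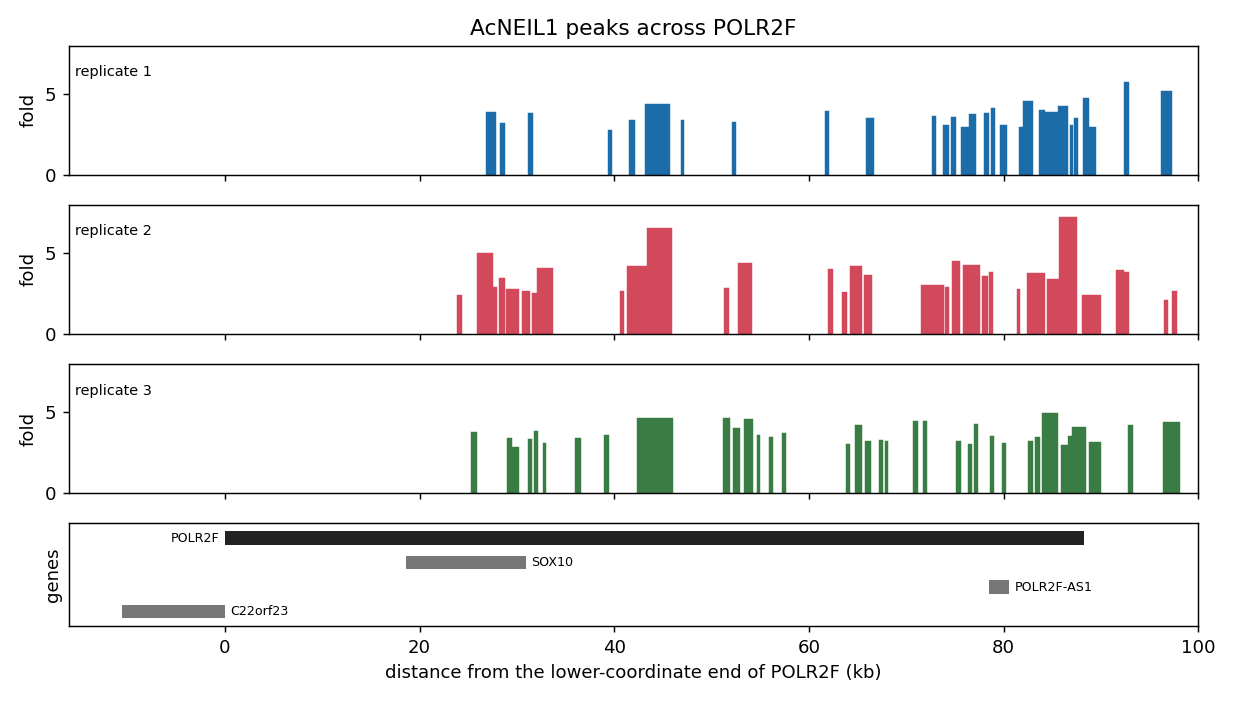
Peaks across POLR2F in replicates 1 to 3, with distance from the lower-coordinate end of the gene in kb along the x axis and the authors' fold of each peak as its height. Only peaks within 10 kb of the gene are drawn, and the lowest strip shows POLR2F, SOX10, POLR2F-AS1 and C22orf23. The start side is empty in all 3 replicates and peaks crowd the far end.

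POLR2A, which carries the C-terminal repeat domain and catalyses RNA synthesis, showed a different pattern. Its gene, chr17:7484366-7514616 on the plus strand, is 30.3 kb long and had no peak at either end or in the body in any replicate. All its peaks were in the flanks, 1 in replicate 1, 3 in replicate 2 and 1 in replicate 3. The nearest lay 1.34, 1.16 and 2.81 kb before the start. In replicate 1 this was chr17:7482340-7483026, with fold 4.38. In replicate 2 it was chr17:7481716-7483210, with fold 4.98, beside a weaker peak at chr17:7481333-7481626 with fold 3.10. In replicate 3 it was chr17:7481218-7481556, with fold 4.86. The strongest flank fold averaged 4.74 ± 0.32 (SD, n = 3) and stood at percentiles 90.0, 94.7 and 93.2 of the 3 lists.

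The peak of replicate 1 overlapped the large peak of replicate 2 and that of replicate 3 overlapped the weaker one, so no merged region near POLR2A held peaks of all 3 replicates. All 4 of these upstream peaks lay in ZBTB4, a zinc finger gene at chr17:7459378-7484249, and touched SLC35G6, a solute carrier family gene at chr17:7481446-7483496. The remaining peak of replicate 2, at chr17:7524470-7524818 with fold 3.38, lay 9854 bp past the far end of POLR2A, just inside the 10 kb limit. Just outside that limit stood GTF2H5, the smallest subunit of TFIIH, with a peak at 10.2 kb in replicate 2, and POLR2M, with peaks at 10.9, 12.1 and 11.2 kb.

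**Figure D4:**
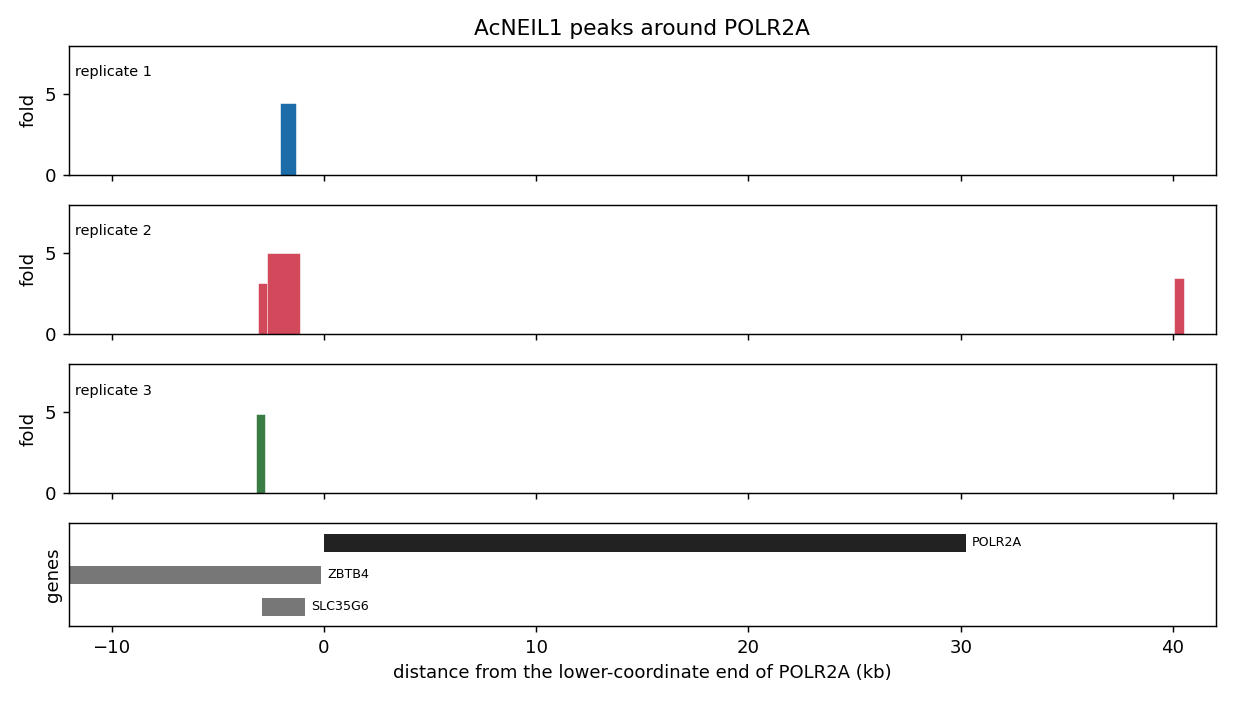
Peaks around POLR2A in replicates 1 to 3, with distance from the lower-coordinate end of the gene in kb along the x axis and the authors' fold of each peak as its height. Only peaks within 10 kb of the gene are drawn, over a strip with POLR2A, ZBTB4 and SLC35G6. The gene itself is empty in every replicate, and the nearest peaks lie 1.16 to 2.81 kb before its start.

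Peaks at the other RNA polymerase II genes, too, lay mostly in the flanks. With POLR2A and POLR2F counted in, the median length was 8.80 kb. Most of these genes thus had less body than flank in which a peak could fall. Of the 13, 9 had a flank peak in at least 2 replicates (69.2%), against 33.3% of all genes, 7 of them in all 3, and POLR2F alone had a body peak. Their flanks held 81.2, 115 and 124 summits per Mb in replicates 1, 2 and 3 (107 ± 22.6), against 51.6 ± 9.57 over all genes. POLR2C and POLR2J encode the pair of subunits on which the enzyme is assembled. POLR2C had strongest flank folds of 3.22, 4.24 and 5.58 (4.35 ± 1.18), in the neighbouring adaptor gene DOK4. POLR2J had 4.66, 6.09 and 3.73 (4.83 ± 1.19) in RASA4B, in a region at chr7:102482272-102486497. POLR2J and RASA4B have near-identical copies in the genome, so those values are uncertain. Replicate 3 was highest at POLR2C and replicate 2 at POLR2J.

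POLR2E, POLR2H and POLR2L, like POLR2F, encode subunits shared with polymerases I and III. POLR2E had an end peak in replicate 2 alone with fold 3.02. Its strongest flank folds were 4.06, 4.73 and 3.82 (4.2 ± 0.47), with that of replicate 3 on the other side of the gene. POLR2H had 4.16, 3.51 and 4.02 (3.90 ± 0.34), in the thrombopoietin gene THPO. POLR2L had 3.74, 5.70 and 3.84 (4.42 ± 1.10), with regions present in all 3 replicates inside CRACR2B and TSPAN4, and an end peak in replicate 1 alone, in TSPAN4, with fold 3.08. POLR2G, a stalk subunit, and POLR2K, another shared subunit, had flank peaks in 2 replicates. POLR2B, the second catalytic subunit, POLR2D, the stalk partner of POLR2G, POLR2I, a small subunit linked to proofreading, and POLR2M, which encodes the polymerase-associated protein GDOWN1, had none.

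Many flank peaks lay in a neighbour. Of the 135 member peaks that touched a flank, 77 (57.0%) overlapped another gene. That share was not counted over the flank peaks of all genes, so it cannot be called high or low. Close neighbours mean that such peaks cannot be given to the member gene by position alone.

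Most genes of the general transcription factors other than TFIID had no peak in any zone, which also held for 41.6% of all genes, and the groups are too small for a share to be read closely. TFIIB (GTF2B), which positions the polymerase, stood 1100, 1702 and 1064 kb from the nearest peak. Of all genes, 622 (3.28%) were farther than 1 Mb in every replicate. Both TFIIE genes, GTF2E1 and GTF2E2, had no peak within 10 kb, nor had GTF2A1 and its germline form GTF2A1L, the large TFIIA subunits, while GTF2A2, the small one, had a flank peak in replicate 1 alone. Of the TFIIH genes, 5 of 6 (83.3%) had none, against 41.6% of all genes, namely GTF2H1, GTF2H2, GTF2H2C, GTF2H3 and GTF2H5. GTF2H2 and GTF2H2C are near-identical copies, where reads that fit both may have been lost or shared. GTF2H4, the remaining TFIIH gene, had flank peaks in replicates 2 and 3, with folds of 3.93 and 3.74, and body peaks in replicate 2 alone. GTF2F1, the large TFIIF subunit, had strongest flank folds of 2.63, 3.77 and 4.19 (3.53 ± 0.80), and GTF2F2, 164 kb long, had body peaks in replicate 1 alone. At GTF2F1 the peak of replicate 1 lay on the other side of the gene from those of replicates 2 and 3.

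TBP, the subunit of TFIID that binds the TATA box, had no peak within 10 kb, and the nearest lay 57.6, 57.3 and 83.6 kb away. Among TBP and the TAFs 6 of 14 genes (42.9%) had none, against 41.6% of all genes, and 6 (42.9%) had a peak in at least 2 replicates, against 46.1%, so both shares were near those of all genes. TAF10, a histone-fold subunit that TFIID shares with the SAGA coactivator, had strongest flank folds of 2.98, 5.77 and 5.75 (4.83 ± 1.61), in the cadherin gene DCHS1 at chr11:6621060-6624757. TAF12, another subunit common to TFIID and SAGA, had 3.25, 4.92 and 4.41 (4.19 ± 0.86) in RAB42. TAF8, the histone-fold partner of TAF10, had an end peak in replicate 1 alone with fold 3.25. Its strongest flank folds were 3.93, 4.21 and 3.97 (4.04 ± 0.15), with that of replicate 2 on the other side of the gene, in CCND3. TAF3, which binds methylated histone H3 at active promoters, had 3.36, 3.53 and 3.50 (3.46 ± 0.09) over the locus LOC105376392. The peak of replicate 3 there did not overlap those of replicates 1 and 2. Although TAF3 is the longest member, at 198 kb, no peak fell in its body.

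TAF12 and TAF4, which pair within TFIID, had body peaks in replicates 1 and 2 alone, with strongest folds of 3.60 and 3.70 for TAF12 and 3.26 and 2.68 for TAF4. At neither gene did the peaks of the 2 replicates overlap. Of all members, 4 had a body region shared by at least 2 replicates, a count that was not made over all genes. TAF15, a FET-family RNA-binding protein found with part of TFIID, had an end peak in replicate 1, chr17:35809634-35809941 with fold 4.32, and in replicate 3, chr17:35808377-35808678 with fold 4.43. These peaks did not overlap and replicate 2 had none, so TAF15 counted as positive in 2 replicates without a shared position.

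All 4 genes of the TFII-I family had a peak in any zone in at least 2 replicates, against 46.1% of all genes. They lie together on chromosome 7, so they are not separate observations. GTF2IRD1, chr7:74453906-74602605 and 149 kb long, had 12, 14 and 11 body peaks, with strongest folds of 4.64, 5.94 and 4.39 (4.99 ± 0.84). Peaks of all 3 replicates met in 3 regions between 21.2 and 27.8 kb into the gene. The strongest was chr7:74475070-74477179 at 4.81 ± 1.06, followed by chr7:74479052-74479778 at 3.83 ± 0.64 and chr7:74480212-74481690 at 3.65 ± 0.40. At its start, the peaks that touched the printed promoters had folds of 2.70 in replicate 1 and 2.46 and 2.57 in replicate 2, and replicate 3 had none. A stronger peak of replicate 1, chr7:74454511-74455095 with fold 4.37, lay just past the inner promoter. On the side of the transcription start, GTF2IRD1 was the only one of 34 members with a peak in at least 2 replicates (2.94%), against 8.55% of all genes. Accepting any replicate added POLR2E and POLR2L, for 3 members (8.82%), against 16.5%. POLR2F was the only one at the opposite end (2.94%), against 8.33% in at least 2 replicates and 14.7% in any.

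GTF2I, which encodes TFII-I itself, chr7:74657718-74760692, had a peak within its lower-coordinate end in replicates 1 and 2, with folds of 4.61 and 3.66, in a region at chr7:74657841-74658292. It had none there in replicate 3, and its body was empty in every replicate. Its flank folds were 2.93, 3.30 and 4.70 (3.64 ± 0.93), with that of replicate 1 on the other side of the gene. GTF2IRD2 had 3, 2 and 0 body peaks in replicates 1, 2 and 3, and GTF2IRD2B, its copy, had 4, 3 and 6, with strongest folds of 4.08, 4.12 and 3.97 (4.06 ± 0.08). These strongest peaks of GTF2IRD2B did not overlap between replicates. GTF2I, GTF2IRD2 and GTF2IRD2B lie in segmental duplications with near-identical copies, and how reads with several matches were treated is not given in the sources used here, so their values are uncertain. Without the 4 TFII-I genes, an alternative chosen after seeing the data, 2 members had an end peak and 3 a body peak in at least 2 replicates.

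**Figure D5:**
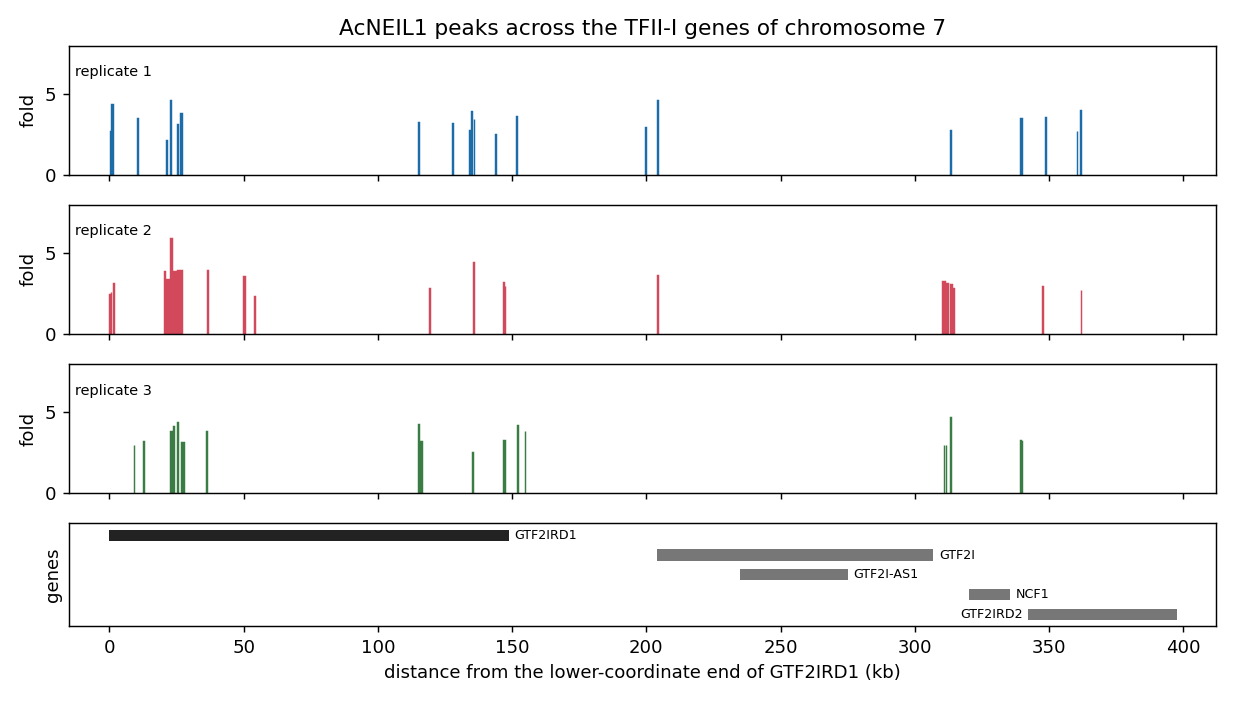
Peaks across GTF2IRD1, GTF2I and GTF2IRD2 in replicates 1 to 3, with distance from the lower-coordinate end of GTF2IRD1 in kb along the x axis and the authors' fold of each peak as its height. Only peaks within 10 kb of these 3 genes are drawn, GTF2IRD2B is off the map, and the lowest strip shows the genes with GTF2I-AS1 and NCF1. GTF2IRD1 has peaks in every replicate, in the stretches up to 54.3 kb and from 114.8 kb on with none between them, and the body of GTF2I has none.

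The 20 members without a peak stood 10.2 to 1702 kb from the nearest one. The median was 82.6 kb, against 168 kb for all genes without a peak, so most were closer to a peak than that wider class. They were POLR2B, POLR2D, POLR2I, POLR2M, GTF2A1, GTF2A1L, GTF2B, GTF2E1, GTF2E2, GTF2H1, GTF2H2, GTF2H2C, GTF2H3, GTF2H5, TBP, TAF2, TAF6, TAF7, TAF9 and TAF13.

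Merging overlapping peaks of the 3 lists gave 162 regions within 10 kb of a member, and 26 of them held peaks of all 3 replicates. Of those 26, 12 lay in the POLR2F window. In all, 12 members had at least 1 such region, which touched an end at 1 member, a body at 3 and a flank at 10. Regions were not merged over all genes, so these counts cannot be called high or low.

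Other genes of the transcription pathway were counted in the same way. Of 18 genes for subunits that belong to polymerases I and III alone, 3 had a peak in any zone in at least 2 replicates (16.7%), against 46.1% of all genes. No zone held a peak in any replicate for 9 of the 18 (50.0%), against 41.6%. POLR3GL, a polymerase III subunit, had the only end peak, with folds of 3.88 in replicate 1 and 4.2 in replicate 3. Of 31 Mediator genes, which bridge activators and the polymerase, 10 had a peak in any zone (32.3%), against 46.1%, and 2 had an end peak (6.45%), against 15.8%. MED29 had folds of 3.56, 3.64 and 3.82 at its ends in replicates 1, 2 and 3, and MED16 had 2.90 and 2.64 in replicates 2 and 3.

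Of the 5 TFIIH genes without a GTF2 symbol, 1 had a flank peak (20.0%), against 33.3% of all genes. The other 4 had none in any zone (80.0%), against 41.6%. Among 24 elongation and pausing factors, 13 had a peak in any zone (54.2%), against 46.1% of all genes. The same 13 had a flank peak, again 54.2% of the 24, against 33.3% of all genes. TCEA2, a factor that rescues arrested polymerase, was the only one with an end peak, with folds of 4.39 and 3.68 in replicates 2 and 3. The end shares of these lists ran from 0% to 6.45%, against 8.89% for the 45 members and 15.8% for all genes.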

How the data were processed

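Binding of acetylated NEIL1 in HCT116 cells was measured by ChIP-seq with 3 ChIP and 3 input libraries, grouped by sample title. The labels do not say whether replicates were separate cultures, so their spread may be technical. Per the file headers, the authors called peaks with MACS 2.1.1.20160309 on each replicate separately, with the same-numbered input as control, a q-value cutoff of 0.05 and at most 2 tags per position, and tags were extended to 268, 294 and 249 bp. The inputs entered only as that control. The submitters' processing notes list Bowtie2, MACS2, SAMtools, bedtools, cutadapt, FastQC and Trim Galore without roles.

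The deposited signal is the pileup in tags at each summit, the deposited fold enrichment is a ratio to local background, and the authors' −log10 p and −log10 q columns score each peak. The −log10 p column was not used. Coordinates are 1-based in hg38, per the file headers. Total tags set the precision, and counts of peaks have no interval of their own.

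Genes came from the RefSeq table for GRCh38.p14, with 59096 genes on the main chromosomes, and scaffold copies were dropped. Peaks were assigned to ends, body and flanks by an overlap of at least 1 bp, and 1 peak could count in several zones. Densities counted each summit once. Zone assignment was tested on simulated data. Python 3.11.15, pandas 2.3.3 and numpy 2.4.6 were used, with no statistical test. Other TFIIH, Mediator, elongation and polymerase I and III genes were counted likewise.

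The members and lists were chosen with earlier results of these data known. Named were POLR2A and POLR2F, every member with an end peak in any replicate or a body or flank peak in all 3, neighbours holding those peaks, and genes of the other lists with an end peak in at least 2 replicates. Further members were named to account for all 45. Alternatives were 2 stricter peak sets, assignment by summit, end windows of 500 and 2000 bp, flanks of 5 kb, each replicate left out, and wider or narrower membership.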

Additional observations from a re-analysis of the deposited data

How the results depend on the processing

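Of 118 recomputed values, 97 stayed within 1.5 times the reported count or within 1 SD of the reported mean. That tally is a weak guide. Some values could not change, such as those of ends and bodies when only the flanks were shortened. The 1 SD rule is also loose for the end density, whose SD was 17.0. Its move from 26.0 to 11.2 per Mb in the stricter q set counted as unchanged. With only peaks of −log10 q 5 or more, the members with an end peak numbered 2 (4.44%, against 7.86% of all genes) and those with a body peak 3 (6.67%, against 15.2%). Summits per Mb of end, body and flank then averaged 11.2, 8.51 and 16.9, and POLR2F had 11.3 body peaks. With the 20000 best peaks of each list, a body peak was found in 2 members (4.44%, against 17.4% of all genes), a flank peak in 11 (24.4%, against 20.8%) and any peak in 13 (28.9%, against 31.5%), so the any-zone share was then below that of all genes. End, body and flank densities were then 13.02, 9.64 and 19.3 per Mb, and POLR2F had 13 body peaks. Leaving out each replicate gave 1 to 3 members with an end peak and 3 to 6 with a body peak. Without replicate 1 the member counts were 1 and 3. They were 2 and 3 without replicate 2, and 3 and 6 without replicate 3. The end counts over all genes fell as well, from 3003 to 2460, 1953 and 2150 without replicates 1, 2 and 3. Their body counts fell from 5073 to 4427, 3975 and 4125. Adding symbols with a suffix gave 68 members, and 35 of them had no peak, where it had been 20 of 45 (44.4%). Over all genes the share without a peak was 41.6%. The body density of the wider set was 23.1. The next alternatives were chosen after seeing the data. Without the 4 TFII-I genes, 2 members had an end peak, 3 a body peak, and the body density was 22.03, and without POLR2F it was 12.7. The cause of these changes was not tested. The stricter sets hold fewer peaks by construction. Under every peak set, window and left-out replicate tried, flank shares of the members stayed above those of all genes and end and body shares stayed below. No paired analysis was possible because the inputs have no values of their own and no result comes from a test between groups. Depth limits the absence of a peak to the authors' cutoff.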
